A study of Homo sapiens with 24 samples.

Results

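RNA from hTERT-HPNE cells kept with extracellular vesicles of the pancreatic carcinoma line PANC-1 was compared with RNA from the same cells kept in fresh medium. hTERT-HPNE (here HPNE) is an established human pancreas line immortalised with the telomerase gene. The comparison uses 6 of the 24 libraries of the series, 3 per group, chosen by the treatment and cell line in their titles, and the 11503 of 48162 genes with a mean of at least 1 FPKM over the 12 HPNE libraries. FPKM scales reads to gene length and to the library's total. Comparisons between libraries still depend on that scaling, so counts with median-of-ratios scaling are also given below. All HPNE cells grew in serum-free keratinocyte medium in 24-well plates. The untreated group received fresh serum-free medium, the PANC-1 group received 1e10 vesicles (EV) per well, and RNA was taken after 24 h. The other HPNE groups, also of 3 libraries each, received 1e10 vesicles per well from the line PPCL-68, or the medium that remained once vesicles had been isolated (residual medium), which served as the negative control. The remaining 12 libraries came from the HPDE-H6c7 line under the same 4 treatments and were not used here. The model is 1 immortalised line at 1 dose and 1 time. The series calls its replicates biological, but no label says which cultures or days they came from, so the p-values measure only the spread between these libraries.

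Extracellular vesicles are membrane-bound particles that cells release and other cells can take up, together with the proteins, lipids and RNA they carry. Cells answer inflammatory signals largely through NF-kB, a transcription factor held inactive by IkB proteins, whose targets include chemokines, cytokines and its own inhibitors. Cells answer unfolded protein in the endoplasmic reticulum (ER) through the sensors IRE1, PERK and ATF6. PERK and related kinases phosphorylate eIF2alpha and raise translation of ATF4, which drives genes for amino acid supply, the integrated stress response. Cholesterol synthesis is controlled by SREBP2, which leaves the ER when sterols are scarce.

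The 6 libraries held 30975782 to 46490312 reads in genes, and their 10 most abundant genes took 16.4 to 18.0% of those reads. In each group 2 libraries lay close together and the third lay apart. On the log2(FPKM + 1) scale the root mean square distance was 0.143 between untreated 1 and 2, and 0.326 and 0.334 from those to untreated 3. It was 0.164 between PANC-1 EV 2 and 3, and 0.311 and 0.360 from those to PANC-1 EV 1. Untreated 3 and PANC-1 EV 1 were also the libraries nearest to the opposite group. The count of each list below is therefore given again without both (the close pairs, an alternative chosen after the data were seen). Leaving out libraries picked in this way narrows the spread within groups and widens the gap between them. Higher counts in the close pairs are thus partly built in and are no independent check. TERT, the immortalising transgene, had 114, 124 and 200 FPKM in untreated and 119, 150 and 159 FPKM in PANC-1 EV libraries, and the mesenchymal gene VIM had 207 to 330 FPKM in all 6. The groups overlapped for both genes. The epithelial gene EPCAM had 0 to 5 reads per library and KRT19 0.0929 to 0.622 FPKM. Of 14 epithelial markers, 2 passed the filter, and the list summed to 8.32 to 14.1 FPKM in untreated and 6.10 to 9.002 FPKM in PANC-1 EV libraries. None of 11 acinar and endocrine markers passed (6 were at 0 in all 12 libraries), and none of 7 immune and endothelial markers passed (2 at 0); each of these lists summed to at most 0.0535 FPKM in any of the 6.

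**Figure D1:**
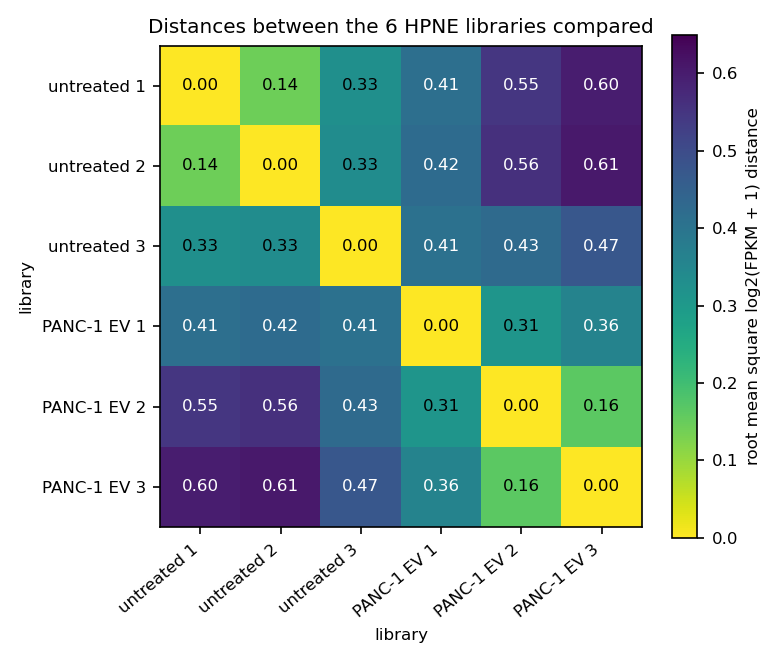
Root mean square distance on the log2(FPKM + 1) scale, over the 11503 tested genes, between each pair of the 6 libraries (both axes: library; colour and printed number: distance). Untreated 1 and 2 form a close pair, as do PANC-1 EV 2 and 3, while untreated 3 and PANC-1 EV 1 lie between the pairs.

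PANC-1 vesicles went with higher levels of inflammatory cytokines, stress response and amino acid supply genes, and with lower levels of cholesterol synthesis genes and of several p53 targets. By limma on log2(FPKM + 1), with Benjamini-Hochberg adjustment over all tested genes and a threshold of 0.05, 2430 genes (21.1%) differed from untreated cells. Of these, 1105 (9.61%) were higher and 1325 (11.5%) lower after vesicles, so 45.5% of the calls were rises. With median-of-ratios scaling the split was 1509 higher and 1079 lower, 58.3% rises. A difference of at least 1 on the log2 scale was reached by 321 of the called genes (2.79%), 217 higher (1.89%) and 104 lower (0.904%), and the median absolute difference of the called genes was 0.53. The groups did not overlap for 2319 of the 2430; over all tested genes the vesicle libraries lay entirely above the untreated ones for 18.1% and entirely below for 23.6%. The close pairs gave 1616 higher and 1915 lower genes, 3531 in all, and 692 of at least 1 on the log2 scale. Leaving out untreated 1 lowered the count of called genes to 1198, untreated 2 to 1087, PANC-1 EV 2 to 1215 and PANC-1 EV 3 to 1046, while leaving out untreated 3 or PANC-1 EV 1 raised it to 2646 or 3070. The count of at least 1 on the log2 scale fell to 212 without untreated 2 and to 192 without PANC-1 EV 3.

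The 2 largest rises were those of IL8 and CXCL1, chemokines that attract neutrophils. IL8 (current symbol CXCL8; on the hg19 build chr4:74606223-74609433) had 2.31, 2.64 and 4.70 FPKM in the untreated libraries and 1109, 1658 and 1461 FPKM after PANC-1 vesicles. Every vesicle library was above every untreated one, by a log2 difference of 8.41 (SE 0.29, limma adjusted p = 5.11e-08). CXCL1, a neighbouring chemokine on chromosome 4, had 0.736, 0.785 and 0.811 FPKM against 183, 199 and 146 FPKM (6.63, SE 0.31, limma adjusted p = 7.72e-07). CXCL3 (log2 difference 4.92), CXCL2 (4.87) and CXCL5 (4.28) rose as well, with no overlap between groups. All 5 tested members of this chemokine list rose, while CXCL6 stayed under the filter, and all 5 were also called in the close pairs. In untreated cells CXCL1, CXCL2, CXCL3 and CXCL5 averaged 0.777, 0.924, 0.478 and 0.747 FPKM. They passed the filter of 1 FPKM only through the other HPNE groups, so the 5 of 5 was partly fixed by the filter. CXCL1, CXCL2 and CXCL3 are near-identical copies, and how reads that fit several of them were assigned is not given in the sources used here. In bulk RNA, more responding cells and more RNA per cell cannot be told apart.

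Cytokines, adhesion molecules and NF-kB's own regulators rose together. Of 24 genes on a list of NF-kB cytokines and feedback inhibitors, 20 were tested and all 20 rose, against 9.61% of all tested genes. Their median log2 difference was 2.19, beside -0.04 over all tested genes. The filter is a mean over all 12 HPNE libraries. Members scarce in untreated cells, such as CSF2 (0 reads) and IL6 (0.27 FPKM on average), passed it only through the other groups. For such members a rise was partly fixed in advance, so the 20 of 20 is not independent of the filter. The close pairs called 19 of the 20. IL1B, the secreted inflammatory cytokine, had 1.60, 1.82 and 2.02 FPKM in untreated and 62.7, 114 and 96.8 FPKM in PANC-1 EV libraries. Its lowest vesicle library stood far above its highest untreated one (log2 difference 4.99, SE 0.25, limma adjusted p = 1.02e-06). IL6, which signals through gp130 and STAT3, had 43 reads over the 3 untreated libraries and 5581 over the 3 vesicle libraries. Its FPKM were 0.169, 0.230 and 0.411 against 18.8, 42.0 and 27.9 (log2 difference 4.52, SE 0.39, limma adjusted p = 5.29e-05). LIF, a cytokine of the same receptor family, went from 4.99, 4.82 and 11.0 to 94.0, 137 and 122 FPKM, and the groups did not overlap (3.97, SE 0.26, limma adjusted p = 6.16e-06). ICAM1, the leukocyte adhesion receptor, went from 1.06, 1.25 and 0.941 to 21.4, 20.2 and 17.0 FPKM, with a narrow spread in both groups (3.30, SE 0.12, limma adjusted p = 5.11e-08). IL24, a cytokine of the IL10 family, rose by 3.55 and the plasminogen activator inhibitor SERPINB2 by 4.83 on the log2 scale.

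CSF2, which encodes the growth factor GM-CSF, had 0 reads in all 3 untreated libraries and 168, 235 and 134 reads after vesicles. Against a floor of 3 reads per library this is at least 38.6-fold higher, and the median of the list is the same, 2.19, with CSF2 at that bound. The regulators moved with the cytokines. TNFAIP3, which encodes the feedback inhibitor A20, went from 5.09, 5.47 and 4.16 to 42.5, 39.9 and 35.4 FPKM (log2 difference 2.77, SE 0.15, limma adjusted p = 1.7e-06). Both groups were tight and far apart. The NF-kB subunits RELB (2.13) and NFKB1 (1.26) and the inhibitor NFKBIA, which encodes IkB-alpha (1.28), rose too. PTGS2, the inducible cyclooxygenase, had 0.379, 0.565 and 0.632 FPKM in untreated and 8.48, 9.09 and 8.50 FPKM in vesicle libraries (2.67, SE 0.15, limma adjusted p = 2.23e-06). TNFAIP2 had the smallest rise of the list (0.62, limma adjusted p = 0.0144), and its call ended without PANC-1 EV 2 (adjusted p = 0.0551) and in the close pairs (adjusted p = 0.074).

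**Figure D2:**
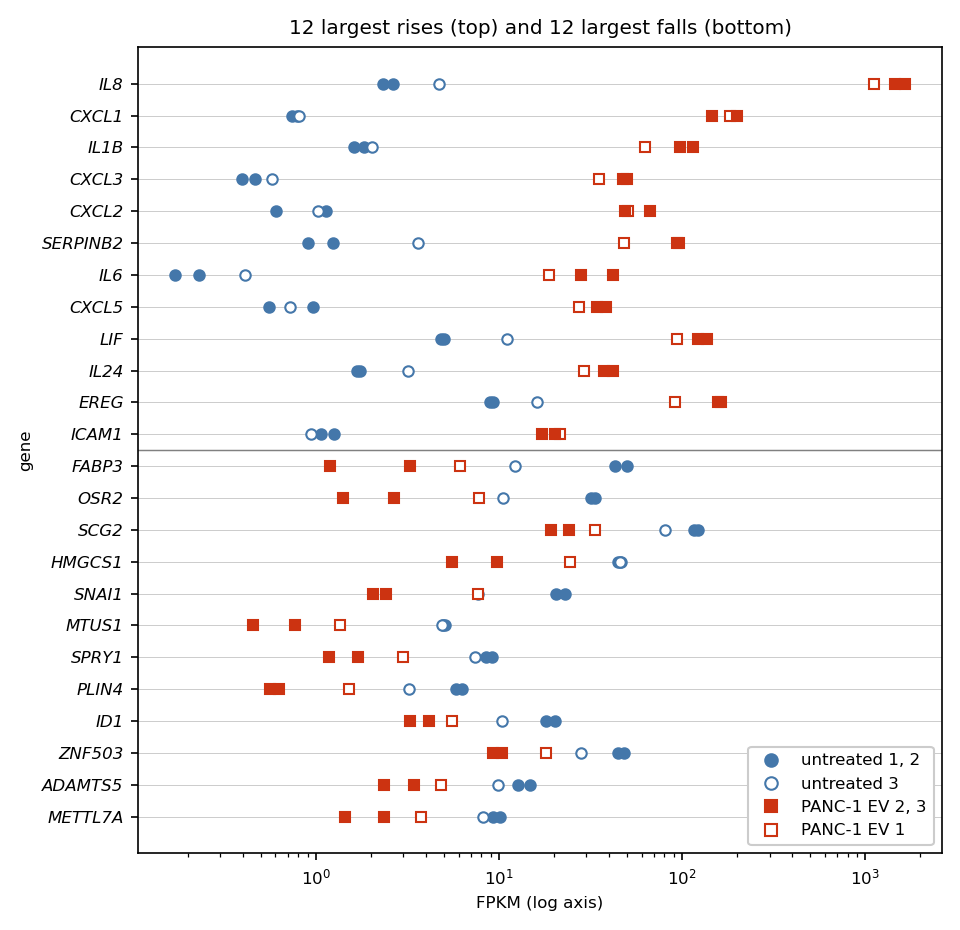
FPKM (log axis) of the 12 largest rises (top) and the 12 largest falls (bottom) among protein-coding genes past the threshold with no overlap between groups; circles are untreated and squares PANC-1 EV libraries, with open symbols for untreated 3 and PANC-1 EV 1. The gap between groups is widest for IL8, and for many falls the open symbols lie nearest to each other.

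The promoters of 4 genes among the 12 largest rises are shown as examples chosen because letters like those of the NF-kB binding site occur in them. Each runs from 250 bases before to 50 bases after the gene start of RefSeq on GRCh38.p14, in the direction of the gene, and capitals mark matches to GGNNTTTCC, a pattern chosen after the values had been seen and searched on both strands, whether or not it overlapped another motif. IL8 lies on chr4:73740319-73740618 (+), with a match that begins 91 bases before the start. CXCL1 lies on chr4:73869143-73869442 (+), with matches 78 and 53 bases before the start. IL6 lies on chr7:22726950-22727249 (+), with a match at 72 bases. ICAM1 lies on chr19:10270870-10271169 (+), with a match on the opposite strand at 186 bases.
IL8: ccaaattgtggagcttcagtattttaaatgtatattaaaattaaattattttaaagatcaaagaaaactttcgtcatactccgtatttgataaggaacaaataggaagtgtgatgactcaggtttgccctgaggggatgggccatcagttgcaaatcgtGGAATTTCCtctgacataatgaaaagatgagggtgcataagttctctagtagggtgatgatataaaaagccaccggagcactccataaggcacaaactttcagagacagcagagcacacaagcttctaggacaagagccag
CXCL1: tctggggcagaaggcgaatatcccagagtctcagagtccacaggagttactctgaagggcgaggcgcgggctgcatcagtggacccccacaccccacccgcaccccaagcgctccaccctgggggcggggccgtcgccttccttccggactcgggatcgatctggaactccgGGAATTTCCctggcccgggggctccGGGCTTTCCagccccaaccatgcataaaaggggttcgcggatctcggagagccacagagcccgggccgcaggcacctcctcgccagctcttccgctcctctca
IL6: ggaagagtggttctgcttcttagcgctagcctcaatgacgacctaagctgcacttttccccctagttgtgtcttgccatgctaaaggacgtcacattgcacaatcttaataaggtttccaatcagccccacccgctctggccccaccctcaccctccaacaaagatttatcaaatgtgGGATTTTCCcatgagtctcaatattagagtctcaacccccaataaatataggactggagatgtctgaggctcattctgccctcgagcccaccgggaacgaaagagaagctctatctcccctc
ICAM1: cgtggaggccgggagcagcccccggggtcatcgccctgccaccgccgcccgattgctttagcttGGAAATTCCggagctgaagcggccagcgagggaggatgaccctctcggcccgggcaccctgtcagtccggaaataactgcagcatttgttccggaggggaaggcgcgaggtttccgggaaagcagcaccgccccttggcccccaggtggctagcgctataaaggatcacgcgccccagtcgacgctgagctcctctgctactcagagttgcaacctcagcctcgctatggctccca
The pattern was found in 1710 of 27305 promoters (6.26%), in all 6 of the neutrophil chemokines and in 10 of the 19 NF-kB list genes with a promoter in the table. IL1B is not among those 10. A match describes letters in the window and was not tested as a binding site.

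The residual medium shows which of these levels were also reached without isolated vesicles. Beside untreated cells, 5052 genes (43.9%) differed in residual medium, 18.7% higher and 25.2% lower. That comparison shares the untreated libraries with the main one, so their values are given side by side and no overlap is counted. Residual medium 3 lay 0.455 and 0.460 from the other libraries of its group, which were 0.138 apart. No alternative left out 1 residual medium library by itself. IL8 had a mean of 1492 ± 548 FPKM (SD, n = 3) in residual medium and 1410 ± 278 FPKM (SD, n = 3) after PANC-1 vesicles, a log2 difference of -0.02 (SE 0.29, limma adjusted p = 0.963). CXCL1 differed by -0.05 and CXCL3 by 0.04 between the same groups. CXCL5 was lower after PANC-1 vesicles than in residual medium, 33.2 against 136 FPKM on average (log2 difference -1.86, limma adjusted p = 0.00289). The NF-kB list had 19 of 20 members higher in residual medium than in untreated cells. Directly between PANC-1 vesicles and residual medium, 2784 genes (24.2%) differed, 13.9% higher and 10.3% lower after vesicles, and 9 members of the list were higher and 1 lower.

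Several genes stood higher after PANC-1 vesicles than in both groups that received no isolated vesicles. IL1B had 41.5 ± 13.7 FPKM in residual medium and 91.3 ± 26.2 FPKM after PANC-1 vesicles (SD, n = 3; log2 difference 1.13, limma adjusted p = 0.00899). PTGS2 was higher by 1.56 (limma adjusted p = 0.000204), LIF by 1.30 (0.00611), CXCL2 by 0.96 (0.0226) and ICAM1 by 0.91 (0.000713) than in residual medium. PTX3, a secreted pattern recognition protein named here after its values were seen, had 101, 96.1 and 82.8 FPKM in untreated and 446, 799 and 678 FPKM in PANC-1 EV libraries, a clear gap (log2 difference 2.73, SE 0.25, limma adjusted p = 7.56e-05). Its mean in residual medium was 108 FPKM, 0.21 from the untreated level on the log2 scale (limma adjusted p = 0.506) and 2.52 lower than after PANC-1 vesicles (limma adjusted p = 0.000204). The scarce transcript of IL34, a ligand of the CSF1 receptor, also chosen after its values were seen, was higher than in untreated cells by 1.31 and higher than in residual medium by 1.51.

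Between the vesicles of the 2 lines, tested directly, 629 genes (5.47%) differed, 370 higher (3.22%) and 259 lower (2.25%) after PANC-1 vesicles. IL8 averaged 2514 FPKM after PPCL-68 vesicles, a difference that did not pass the threshold (log2 difference -0.85, SE 0.29, limma adjusted p = 0.111). CXCL5 was 1.86 lower after PANC-1 than after PPCL-68 vesicles (limma adjusted p = 0.0107) and the cationic amino acid transporter SLC7A2 2.64 lower (limma adjusted p = 0.000667). HBEGF, a ligand of the EGF receptor, was 1.62 higher (limma adjusted p = 0.00685), and SCG2, a secretory granule protein, 1.55 higher (limma adjusted p = 0.00434).

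**Figure D3:**
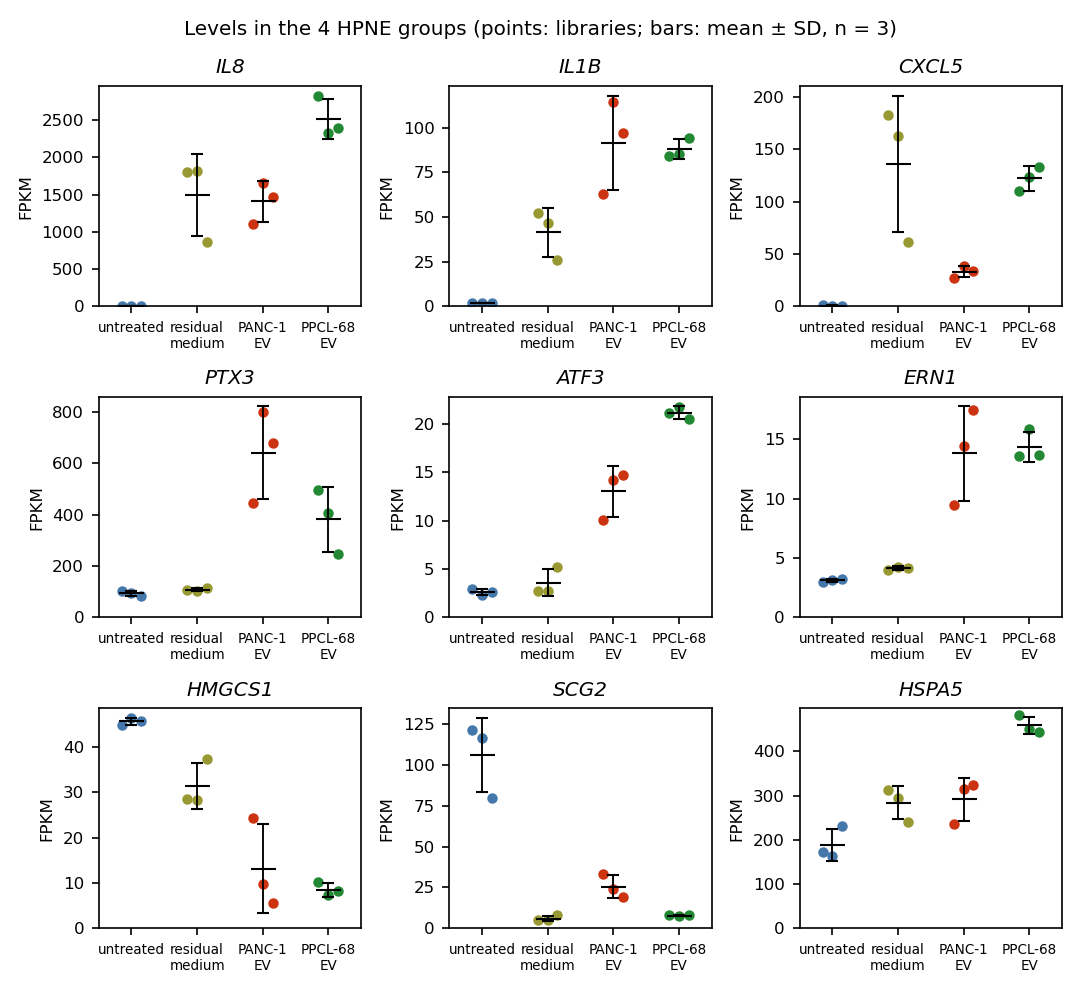
FPKM (linear axes from 0) of 9 genes in the 4 HPNE groups; points are libraries, long bars means and whiskers SD (n = 3). IL8 and CXCL5 are high in residual medium too, PTX3, ATF3 and ERN1 stay near the untreated level there, and HMGCS1 is lower in both vesicle groups than in residual medium.

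Several ligands and feedback regulators of growth factor signalling rose. Of 23 tested immediate-early and ERK feedback genes, 11 rose (47.8%, beside 9.61% of all tested genes) and 0 fell (median log2 difference 0.68). The close pairs gave 14 rises and 1 fall. EREG, an EGF receptor ligand among the 12 largest rises, had 8.88, 9.31 and 16.2 FPKM in untreated and 91.2, 163 and 158 FPKM in vesicle libraries. No vesicle library came near the untreated range (3.47, SE 0.25, limma adjusted p = 1.24e-05). HBEGF had 1.64, 2.23 and 3.64 against 11.9, 20.2 and 21.5 FPKM, also without overlap (2.43, SE 0.26, limma adjusted p = 0.000203). IER3, an early response gene, had 70.6, 69.6 and 78.5 against 500.1, 441 and 413 FPKM (2.61, SE 0.14, limma adjusted p = 1.74e-06). The ERK phosphatases DUSP5 (1.76) and DUSP6 (1.64) and the transcription factor MYC (0.90) rose, while SPRY1, which encodes another inhibitor of the pathway, is not on the list and is among the 12 largest falls, went from 8.52, 9.10 and 7.38 to 2.97, 1.70 and 1.17 FPKM (-1.70, SE 0.28, limma adjusted p = 0.00257). Named after their values were seen, the growth factors FGF2 (2.52), NRG1 (2.86) and INHBA (2.12) and the checkpoint ligand CD274 (2.28) rose without overlap between groups.

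Several regulators of the integrated stress response rose, but the transcript of ATF4 itself did not pass the test. Of 19 regulators, 10 rose (52.6%, beside 9.61% of all tested genes) and 0 fell, with a median log2 difference of 0.81. The close pairs called 8, and leaving out any 1 of the 6 libraries gave 7 or 8 rises. PPP1R15A, the regulatory subunit that brings a phosphatase to eIF2alpha, had 49.6, 48.9 and 38.6 FPKM in untreated and 144, 214 and 237 FPKM in PANC-1 EV libraries. The lowest vesicle library was PANC-1 EV 1, still far above the untreated ones (log2 difference 2.07, SE 0.17, limma adjusted p = 4.02e-05). ATF3, a stress-induced repressor, had 2.94, 2.28 and 2.60 against 10.03, 14.2 and 14.8 FPKM (1.95, SE 0.19, limma adjusted p = 0.000124). CHAC1, which degrades glutathione, rose by 1.91, the secreted protein STC2 by 1.82 and SESN2, an inhibitor of mTORC1, by 1.45. ATF4 had 262, 257 and 197 FPKM in untreated and 266, 244 and 228 FPKM in vesicle libraries, groups that overlapped (0.05, SE 0.20, limma adjusted p = 0.874). ATF4 is known to be controlled mainly at translation, which these RNA data do not measure.

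DDIT3, which encodes the pro-apoptotic factor CHOP, had 14.3, 14.8 and 7.62 FPKM in untreated and 30.3, 28.5 and 27.7 FPKM in PANC-1 EV libraries. The groups did not overlap, and untreated 3 was the lowest of all (log2 difference 1.22, SE 0.34, limma adjusted p = 0.0271). Its call ended when any 1 of the 6 libraries was left out (adjusted p 0.0503 to 0.0791) and in the close pairs (0.90, adjusted p = 0.114). TRIB3, a pseudokinase induced by CHOP and ATF4, had 73.2, 67.6 and 37.7 against 151, 156 and 159 FPKM (1.43, limma adjusted p = 0.0439), and its call likewise ended without any 1 of the 6 (adjusted p 0.0674 to 0.123) and in the close pairs (adjusted p = 0.146). The secreted stress marker GDF15 (0.81, limma adjusted p = 0.0557) did not pass, and was called with median-of-ratios scaling (adjusted p = 0.0408), with the 6 libraries alone (0.0359) and by limma voom (0.041). Of the same 19 regulators, 2 were higher and 7 lower in residual medium than in untreated cells, beside 18.7% and 25.2% of all tested genes. Their median log2 difference was -0.43. DDIT3 had a mean of 6.21 FPKM there and TRIB3 of 29.3 FPKM. The groups overlapped for DDIT3, with 10.3 FPKM in residual medium 3 and 7.62 FPKM in untreated 3. ATF3 was 0.31 above untreated cells and did not pass (limma adjusted p = 0.205). Against residual medium, 14 of the 19 were higher after PANC-1 vesicles and 0 lower, with PPP1R15A higher by 1.79, ATF3 by 1.63 and SESN2 by 2.15.

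Genes that bring in, make and charge amino acids, many of them known ATF4 targets, rose in part. Of 15 tested amino acid transporters 8 rose (53.3%, beside 9.61% of all tested genes) and 0 fell (median log2 difference 0.57). The close pairs gave 8 rises and 1 fall. The count was 5 without untreated 1, 4 without untreated 2 or PANC-1 EV 2, and 3 without PANC-1 EV 3. SLC7A2 had 5.09, 5.36 and 5.22 FPKM in untreated and 32.4, 37.0 and 46.6 FPKM in vesicle libraries, with a mean of 32.0 FPKM in residual medium. Its groups were tight and well apart (2.66, SE 0.21, limma adjusted p = 3.07e-05). SLC7A5, the light chain of the leucine transporter, had 44.7, 45.0 and 64.5 against 122, 232 and 306 FPKM (2.00, SE 0.41, limma adjusted p = 0.00693). SLC7A1, an arginine transporter, rose by 1.49. SLC3A2, the partner chain of SLC7A5, rose by 1.10 (limma adjusted p = 0.01), a call that ended without PANC-1 EV 3 (adjusted p = 0.0511), and the cystine transporter SLC7A11 did not pass (0.81, limma adjusted p = 0.0897). SLC7A11 was called in the close pairs (1.12, adjusted p = 0.0319), without PANC-1 EV 1 (1.14, 0.0169) and with a replicate block (0.0350).

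Of 16 genes of serine, one-carbon, asparagine and proline synthesis, 5 rose and 1 fell (median 0.35), against 6 and 1 in the close pairs. The share called was 37.5%, beside 21.1% of all tested genes. Rises numbered 3 without untreated 1 or PANC-1 EV 2 and 2 without untreated 2 or PANC-1 EV 3. MTHFD2, the mitochondrial folate enzyme, had 18.6, 18.0 and 18.3 FPKM in untreated and 36.2, 53.1 and 58.8 FPKM in vesicle libraries, so all 3 were raised and PANC-1 EV 1 least (1.35, SE 0.21, limma adjusted p = 0.00166). The alanine transaminase GPT2 rose by 1.17. ASNS, asparagine synthetase, had 73.7, 71.9 and 63.4 against 113, 150 and 149 FPKM without overlap, but did not pass (0.96, SE 0.34, limma adjusted p = 0.063) unless the 6 libraries were fitted alone (adjusted p = 0.00599). ALDH18A1, which starts proline synthesis, fell by 0.44. Of 20 cytosolic aminoacyl-tRNA synthetases, which charge tRNAs, 8 rose (40%, beside 9.61% of all tested genes) and 0 fell (median 0.40). The close pairs gave 10 rises and 1 fall. Rises numbered 5 without untreated 2, 4 without PANC-1 EV 2 and 3 without PANC-1 EV 3. GARS, the glycine enzyme, had 122, 120 and 129 against 189, 241 and 243 FPKM (0.85, SE 0.14, limma adjusted p = 0.0026), and the threonine enzyme TARS rose by 0.70. Of the 16 tested mitochondrial synthetases 1 rose and 1 fell (12.5% called, beside 21.1% of all tested genes), with 2 and 1 in the close pairs. Neither count stayed above 0 without untreated 2, PANC-1 EV 2 or PANC-1 EV 3.

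Some sensors and regulators of ER stress rose, as did 1 ER chaperone gene. ERN1, which encodes the sensor IRE1, had 2.99, 3.12 and 3.24 FPKM in untreated and 9.50, 14.5 and 17.4 FPKM in PANC-1 EV libraries. PANC-1 EV 1 was the lowest of the vesicle libraries and still well above the untreated range (log2 difference 1.81, SE 0.16, limma adjusted p = 6.73e-05), and the mean in residual medium was 4.14 FPKM. XBP1, whose transcript IRE1 splices, had 55.0, 55.7 and 57.9 against 87.6, 108 and 112 FPKM (0.85, SE 0.11, limma adjusted p = 0.000535). HERPUD1, which serves ER-associated degradation, had 68.8, 62.9 and 68.5 against 101, 116 and 119 FPKM (0.74, SE 0.16, limma adjusted p = 0.00946). It was the 1 gene called of 23 tested degradation and translocation genes (4.35%, below the 9.61% higher among all tested genes). The close pairs called 6 higher and 1 lower, and 3 were higher without untreated 3 and 4 without PANC-1 EV 1. Against residual medium ERN1 was higher by 1.49, XBP1 by 0.62 and HERPUD1 by 0.60, each past the threshold. The gene-level values do not show splicing of XBP1. Of 10 sensors and eIF2alpha kinases, 2 rose and 1 fell (30% called, beside 21.1% of all tested genes), with 3 and 2 in the close pairs. The list median was -0.05, beside -0.04 over all tested genes. The fall was that of EIF2AK3, which encodes PERK, with overlapping groups (-0.46, limma adjusted p = 0.0309). Its call ended without untreated 1, untreated 3, PANC-1 EV 2 or PANC-1 EV 3 (adjusted p 0.0635 to 0.13).

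HSPA5, the main ER chaperone BiP, had 172, 163 and 231 FPKM in untreated and 236, 316 and 323 FPKM in vesicle libraries. The groups did not overlap, but untreated 3 came close to PANC-1 EV 1 (log2 difference 0.63, SE 0.16, limma adjusted p = 0.0204). Its call ended without untreated 1, untreated 2, PANC-1 EV 2 or PANC-1 EV 3 (adjusted p 0.0813 to 0.0921), and in the close pairs the difference was 0.93 (adjusted p = 0.0015). HSPA5 was the 1 gene that rose of 22 ER chaperones and folding enzymes (4.55%, below the 9.61% of all genes), whose median difference was 0.20. The close pairs called 10 of the 22. That count was 4 without untreated 3, 3 without PANC-1 EV 1 and 0 without any other of the 6 libraries. The co-chaperone HYOU1 (0.54), HSP90B1 (0.42) and the disulfide isomerase PDIA4 (0.41) did not pass. In the close pairs they were called higher by 0.89, 0.76 and 0.79. HYOU1 (0.69) and HSP90B1 (0.63) were also called without untreated 3, and HYOU1 without PANC-1 EV 1 (0.73) and with median-of-ratios scaling (0.60). In residual medium 17 of the 22 were higher and 1 lower than in untreated cells, and HSPA5 averaged 283 FPKM, 0.04 from its level after PANC-1 vesicles on the log2 scale (limma adjusted p = 0.883). After PPCL-68 vesicles HSPA5 averaged 458 FPKM, 0.66 above PANC-1 vesicles (limma adjusted p = 0.04).

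Promoters of 3 of these stress genes are shown with the letters of 2 known response elements in capitals. They come from the same RefSeq table on GRCh38.p14. TGATGNAA is the C/EBP-ATF element through which ATF4 acts, and the ER stress response element bound by ATF6 with NF-Y is CCAAT and CCACG with any 9 bases between them; both were searched on both strands, any overlap allowed. ASNS lies on chr7:97872359-97872658 (-), with a match 68 bases before the start. CHAC1 lies on chr15:40953221-40953520 (+), with a match on the opposite strand at 209 bases. HSPA5 lies on chr9:125241294-125241593 (-), with a match at 66 bases.
ASNS: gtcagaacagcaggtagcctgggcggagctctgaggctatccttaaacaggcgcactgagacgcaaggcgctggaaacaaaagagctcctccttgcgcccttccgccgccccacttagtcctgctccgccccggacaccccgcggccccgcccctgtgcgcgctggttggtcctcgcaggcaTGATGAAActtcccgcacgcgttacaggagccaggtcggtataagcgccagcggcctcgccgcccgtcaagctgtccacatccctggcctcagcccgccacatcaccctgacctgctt
CHAC1: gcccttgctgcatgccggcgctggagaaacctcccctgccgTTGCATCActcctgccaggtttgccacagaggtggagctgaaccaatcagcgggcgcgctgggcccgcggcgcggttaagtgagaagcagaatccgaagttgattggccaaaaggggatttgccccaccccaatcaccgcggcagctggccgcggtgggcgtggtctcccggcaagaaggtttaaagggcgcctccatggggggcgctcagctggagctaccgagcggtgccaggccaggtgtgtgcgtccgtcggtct
HSPA5: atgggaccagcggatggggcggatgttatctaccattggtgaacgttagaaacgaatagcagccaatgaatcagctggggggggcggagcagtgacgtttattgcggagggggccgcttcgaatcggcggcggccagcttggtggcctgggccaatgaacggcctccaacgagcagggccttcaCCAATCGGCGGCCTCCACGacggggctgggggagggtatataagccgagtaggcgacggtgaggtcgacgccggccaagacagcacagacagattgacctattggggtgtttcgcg
TGATGNAA was found in 1003 of 27305 promoters (3.67%), in 2 of 17 stress response regulators (ATF3 and CHAC1), 3 of 15 transporters, 6 of 16 cytosolic synthetases and 2 of 11 synthesis genes. The ER stress element was found in 22 promoters (0.0806%), in 6 of 20 chaperone genes and in XBP1. These are counts of letters and carry no test.

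Cholesterol synthesis genes fell. Of 23 tested genes of cholesterol synthesis and uptake, 14 fell and 0 rose, against 11.5% of all tested genes, with a median log2 difference of -0.62. The close pairs gave 15 falls and 0 rises, and the count was 8 without untreated 2 or without PANC-1 EV 3. HMGCS1, which makes HMG-CoA, had 44.8, 46.4 and 45.7 FPKM in untreated and 24.3, 9.70 and 5.55 FPKM in PANC-1 EV libraries. The untreated libraries were nearly equal and the vesicle libraries spread widely below them, PANC-1 EV 1 highest (log2 difference -1.95, SE 0.36, limma adjusted p = 0.00442). MVD, the mevalonate decarboxylase, had 43.6, 47.5 and 44.7 against 22.7, 19.5 and 15.1 FPKM (-1.22, SE 0.12, limma adjusted p = 0.000136), and LSS, which forms lanosterol, fell by 0.94 on the log2 scale. The SREBP retention factor INSIG1 (-0.86, limma adjusted p = 0.151) and SREBF2, which encodes SREBP2 (-0.21, 0.116), did not pass. INSIG1 was called lower in the close pairs (-1.56, adjusted p = 0.00871) and without PANC-1 EV 1 (-1.38, 0.0116), and ranged from -0.42 to -1.38 as 1 library was left out. SREBF2 was called lower without PANC-1 EV 1 (-0.27, adjusted p = 0.0486). In residual medium 5 of the 23 were lower than in untreated cells, and HMGCS1 averaged 31.4 FPKM there. Tested directly, 12 of the 23 were lower after PANC-1 vesicles than in residual medium and 0 higher, with HMGCS1 lower by 1.41 on the log2 scale (limma adjusted p = 0.0178). Against PPCL-68 vesicles, 11 of the 23 were higher after PANC-1 vesicles and 0 lower.

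Of 10 LXR target and cholesterol efflux genes 1 rose and 3 fell (40% called, beside 21.1% of all tested genes). There were 1 rise and 6 falls in the close pairs, and 1 fall without untreated 1, untreated 2 or PANC-1 EV 3. NPC1, which exports cholesterol from lysosomes, had 8.11, 8.09 and 9.18 FPKM in untreated and 15.4, 15.8 and 15.2 FPKM in vesicle libraries, tight in both groups (0.80, SE 0.08, limma adjusted p = 0.000186). SCD, the stearoyl-CoA desaturase, went from 236, 239 and 146 to 131, 75.0 and 41.6 FPKM (-1.43, limma adjusted p = 0.021), and its call ended without untreated 1, untreated 2, PANC-1 EV 2 or PANC-1 EV 3 (adjusted p 0.0638 to 0.0832). ABCA1, the cholesterol efflux pump, did not pass against untreated cells (-0.63, limma adjusted p = 0.362), but its mean of 5.10 FPKM in residual medium was lower than after PANC-1 vesicles (log2 difference 2.53, limma adjusted p = 0.00488).

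The 12 largest falls included genes of lipid storage, secretion and transcription. FABP3, a fatty acid binding protein, had 42.8, 50.2 and 12.3 FPKM in untreated and 6.13, 3.26 and 1.19 FPKM in PANC-1 EV libraries. Untreated 3 and PANC-1 EV 1 were the nearest libraries of the groups (log2 difference -2.93, SE 0.49, limma adjusted p = 0.00273). SCG2 had 122, 116 and 80.1 against 33.3, 24.0 and 19.1 FPKM (-2.03, SE 0.22, limma adjusted p = 0.000229). MTUS1, a microtubule-associated protein, had 5.09, 4.92 and 4.86 against 1.36, 0.763 and 0.450 FPKM, with nearly equal untreated libraries (-1.71, SE 0.15, limma adjusted p = 6.57e-05). ID1, an inhibitor of basic helix-loop-helix factors and a target of BMP signalling, had 20.1, 18.1 and 10.4 against 5.50, 4.15 and 3.26 FPKM (-1.67, SE 0.23, limma adjusted p = 0.00102). The lipid droplet protein PLIN4 (-1.68), the aggrecanase ADAMTS5 (-1.59) and the lipid droplet methyltransferase METTL7A (-1.58) also fell. PLIN4 and MTUS1 averaged 0.901 and 0.856 FPKM after PANC-1 vesicles and less in the other groups that were treated. They passed the filter of 1 FPKM only through the untreated libraries, so their falls were partly fixed by the filter. SCG2, MTUS1, ADAMTS5 and PLIN4 were still lower in residual medium, where they averaged 5.94, 0.0956, 1.29 and 0.0782 FPKM. FABP3, OSR2, SNAI1, SPRY1, ZNF503 and METTL7A averaged 2.24, 1.27, 1.34, 1.84, 11.7 and 1.94 FPKM there. None of these passed between PANC-1 vesicles and residual medium (limma adjusted p 0.138 to 0.89). ID1 and HMGCS1 averaged 7.63 and 31.4 FPKM there, above their levels after PANC-1 vesicles (-0.72, limma adjusted p = 0.0443, and -1.41, 0.0178). For the transcription factors OSR2 (-2.46), SNAI1 (-1.88) and ZNF503 (-1.63), the calls ended without untreated 1, untreated 2, PANC-1 EV 2 or PANC-1 EV 3, with adjusted p of 0.0526 to 0.0659, 0.0801 to 0.092 and 0.0708 to 0.0846.

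More targets of p53, the DNA damage response factor, fell than rose. Of 21 targets 10 fell and 3 rose (61.9% called, beside 21.1% of all tested genes), with a median log2 difference of -0.37. In the close pairs 13 fell and 3 rose, and falls numbered 8 without untreated 1, untreated 2, PANC-1 EV 2 or PANC-1 EV 3. TP53INP1, a pro-apoptotic target, had 20.4, 19.7 and 13.7 FPKM in untreated and 8.28, 5.79 and 4.34 FPKM in vesicle libraries, with no overlap (-1.43, SE 0.23, limma adjusted p = 0.00213), and the antiproliferative gene BTG2 fell by 0.79 on the log2 scale. Of those that rose, GADD45A, a growth arrest gene that ATF4 also controls, had 42.7, 42.2 and 41.6 against 113, 209 and 241 FPKM. All 3 vesicle libraries were far above the untreated ones (2.05, SE 0.22, limma adjusted p = 0.000231), and residual medium averaged 44.1 FPKM. The kinase PLK3 (0.81) and the death receptor TNFRSF10B (0.63) rose too. MDM2, the p53 ligase, did not pass (-0.22, limma adjusted p = 0.227), but was called lower in the close pairs (-0.42, adjusted p = 0.0113) and without PANC-1 EV 1 (-0.39, adjusted p = 0.0116). In residual medium 15 of the 21 were lower than in untreated cells and 1 higher.

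Cell cycle genes were not called. By limma, 0 of 27 mitosis and spindle genes and 0 of 28 tested replication genes passed. Their median log2 differences were 0.30 and 0.19, beside -0.04 over all tested genes. As 1 library was left out these ranged from 0.13 to 0.65 and from 0.08 to 0.42, and in the close pairs they were 0.71 and 0.50. The lack of calls therefore does not show that these levels were unchanged. At an unadjusted p under 0.05, 0 mitosis genes and 1 replication gene were higher and 0 lower, limma voom on the recovered reads called 0 of each, and the close pairs called 0 mitosis genes and 1 replication gene higher. A fit of the 6 libraries alone called 0 mitosis genes, 1 replication gene higher and 1 lower. The mitosis genes summed to 117 to 268 FPKM in untreated and 167 to 213 FPKM in vesicle libraries. RRM2, a subunit of ribonucleotide reductase, had 6.18, 5.49 and 15.0 against 14.1, 21.8 and 22.2 FPKM, with untreated 3 above PANC-1 EV 1 (1.14, SE 0.59, limma adjusted p = 0.185). In residual medium 27 of the 27 mitosis genes and 25 of the 28 replication genes were higher than in untreated cells, beside 18.7% of all tested genes. The mitosis genes summed to 219 to 869 FPKM there, a range that overlaps the untreated one. The replication genes summed to 317 to 792 FPKM there and to 205 to 312 FPKM in untreated libraries. After PANC-1 vesicles 14 mitosis and 15 replication genes were lower than in residual medium.

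**Figure D4:**
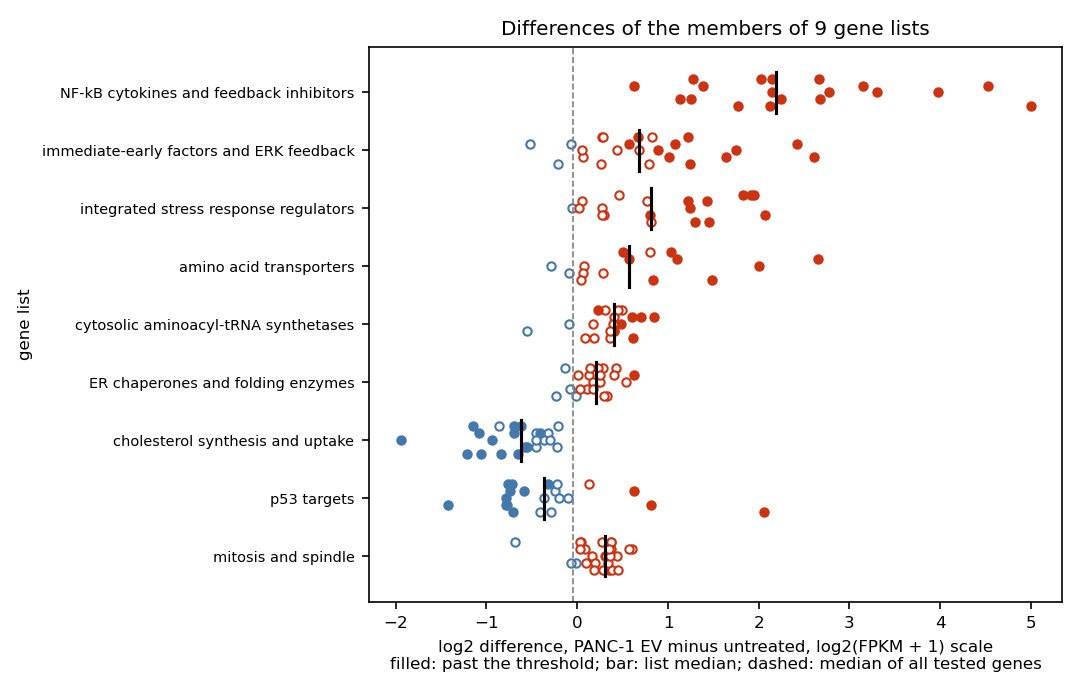
Log2 difference (PANC-1 EV minus untreated, log2(FPKM + 1) scale) of each tested member of 9 gene lists; filled circles passed the threshold, red is higher and blue lower after vesicles, bars are list medians, the dashed line is the median of all tested genes, and CSF2, with 0 reads in untreated libraries, is not drawn. All drawn NF-kB genes are filled and to the right, 14 of 23 cholesterol genes are filled and to the left, and no mitosis gene is filled.

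Of interferon response genes 30% were called, beside 21.1% of all tested genes (9.61% higher and 11.5% lower). Of 20 tested, 4 rose and 2 fell, with 10 rises and 2 falls in the close pairs and 10 rises without PANC-1 EV 1; falls numbered 1 without any 1 library other than untreated 3. IRF1, a transcription factor of the interferon response, had 11.9, 11.8 and 9.88 FPKM in untreated and 38.1, 30.1 and 31.5 FPKM in vesicle libraries, well apart (1.48, SE 0.21, limma adjusted p = 0.00118). The apoptosis regulator XAF1 rose by 1.01. IFIT1, which binds viral RNA, had 17.1, 17.0 and 16.3 against 5.56, 7.60 and 8.58 FPKM and fell (-1.13, SE 0.27, limma adjusted p = 0.0135), a call that ended in the close pairs (adjusted p = 0.0517). Of 18 tested heat shock chaperones outside the ER 1 rose and 6 fell (38.9% called), as many as in the close pairs. HSPA8, the constitutive cytosolic chaperone, had 513, 503 and 542 against 309, 272 and 242 FPKM, with no overlap (-0.92, SE 0.20, limma adjusted p = 0.00939). HSPA1A (-1.09) and HSPA1B (-0.77), near-identical inducible genes whose reads may have been split between them, fell, and the mitochondrial HSPA9 rose by 0.81. Of 5 tested metallothionein and zinc export genes 3 rose (60%) and 0 fell, as many as in the close pairs. Among them were MT2A (1.10) and MT1E (0.93), also members of a family of near copies. Without the filter on low values 2 of the 5 rose, and the call of MT2A ended (limma adjusted p = 0.0724). In residual medium 3 of the 5 were higher than in untreated cells and 1 lower. The median difference from untreated cells was 1.30 there and 0.78 after PANC-1 vesicles. Of 15 tested NRF2 antioxidant genes 1 rose and 4 fell (33.3% called), with 2 rises and 4 falls in the close pairs. There were 0 rises without untreated 1, untreated 2, PANC-1 EV 2 or PANC-1 EV 3 and 2 rises without PANC-1 EV 1. The pentose phosphate enzymes TKT (-0.69) and PGD (-0.48) were among the falls, and HMOX1 did not pass (-0.70, limma adjusted p = 0.239). In residual medium 10 of the 15 NRF2 genes were lower than in untreated cells and 1 higher. Of 25 tested glycolysis and hypoxia genes 3 rose (12%, near the 9.61% of all tested genes) and 0 fell, against 3 and 3 in the close pairs. The glucose transporter SLC2A3 was higher by 1.30 and the phosphofructokinase PFKP by 0.74. Residual medium had 20 of the 25 higher than untreated cells.

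Some secreted proteases rose, while the share of matrix genes called (17.9%) lay near that of all tested genes (21.1%). MMP1, interstitial collagenase, had 57.2, 54.2 and 100.1 FPKM in untreated and 454, 669 and 576 FPKM in vesicle libraries. Every vesicle library exceeded every untreated one several fold (3.03, SE 0.33, limma adjusted p = 0.000241), and residual medium averaged 673 FPKM. The stromelysin MMP3 rose by 2.48, while PLAU, the urokinase, ranged from 3.55 to 15.7 against 7.30 to 52.9 FPKM and did not pass (1.95, limma adjusted p = 0.0705). PLAU was called higher in the close pairs (3.43, adjusted p = 0.000991), without untreated 3 (2.57, 0.0271) and without PANC-1 EV 1 (2.81, 0.00737). The metalloproteinase inhibitor TIMP3 fell by 0.68. In all, 4 of 14 tested protease and inhibitor genes rose and 2 fell (42.9% called, beside 21.1% of all tested genes), with 6 and 2 in the close pairs. Of 28 tested collagen, matrix and crosslinking genes 2 rose and 3 fell, with 5 and 4 in the close pairs. Without untreated 1, untreated 2, PANC-1 EV 2 or PANC-1 EV 3 the counts were 1 and 0. TNC, which encodes tenascin C, had 0.558, 0.547 and 7.65 against 6.30, 27.5 and 25.0 FPKM, overlapping groups (2.67, SE 0.82, limma adjusted p = 0.0402), and its call ended without untreated 1, untreated 2, PANC-1 EV 2 or PANC-1 EV 3 (adjusted p 0.135 to 0.148). The fibrillar collagens COL3A1 (-0.92), COL1A2 (-0.68) and COL1A1 (-0.59) and fibronectin, FN1 (0.22), did not pass, but COL1A2 was called lower in the close pairs (-0.95, limma adjusted p = 0.0394), without PANC-1 EV 1 (-0.84, 0.0468) and with the 6 libraries alone (0.0462).

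Of 11 mesenchymal and progenitor markers 3 rose (27.3%, beside 9.61% of all tested genes) and 0 fell, with 2 and 1 in the close pairs. The count of rises was 1 without untreated 1, untreated 2, PANC-1 EV 2 or PANC-1 EV 3, and 2 without untreated 3 or PANC-1 EV 1. SNAI2, the transcription factor Slug, had 107, 109 and 104 FPKM in untreated and 222, 198 and 203 FPKM in vesicle libraries, tight in both groups (0.95, SE 0.13, limma adjusted p = 0.000845). Residual medium averaged 105.0 FPKM, 0.99 below PANC-1 vesicles. Of 12 YAP-TEAD targets, genes of the Hippo pathway, 6 rose (50%, beside 9.61% of all tested genes) and 0 fell (median 0.71), 10 in the close pairs. That count was 2 without untreated 1, untreated 2, PANC-1 EV 2 or PANC-1 EV 3, 10 without untreated 3 and 9 without PANC-1 EV 1. In residual medium 8 of the 12 were higher than in untreated cells and 0 lower. Between PANC-1 vesicles and residual medium 1 was higher and 1 lower after vesicles. CYR61, the matricellular protein CCN1, had 61.0, 62.1 and 156 against 160, 356 and 430 FPKM, with untreated 3 just below PANC-1 EV 1 (1.78, limma adjusted p = 0.0247), and its call ended without untreated 1, untreated 2, PANC-1 EV 2 or PANC-1 EV 3 (adjusted p 0.0891 to 0.108).

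Some genes of the lysosome and of vesicle biogenesis were called, and few of the ribosome. Of 23 lysosome genes 5 fell (21.7%, beside 11.5% of all tested genes) and 0 rose (7 falls in the close pairs, 3 without untreated 1, untreated 2, PANC-1 EV 2 or PANC-1 EV 3); acid lipase, LIPA, had 50.0, 49.9 and 55.1 FPKM in untreated and 36.3, 35.6 and 27.9 FPKM in vesicle libraries (-0.63, SE 0.13, limma adjusted p = 0.00776), and the ceramidase ASAH1 fell by 0.62. In residual medium 15 of the 23 lysosome genes were lower than in untreated cells and 0 higher. Of 17 tested autophagy genes 3 rose (17.6%, beside 9.61% of all tested genes) and 0 fell, against 1 and 1 in the close pairs. ATG7, which starts the conjugation of autophagy proteins, was higher by 0.62. For the autophagy list, leaving out PANC-1 EV 1 gave 2 rises and leaving out any other of the 6 gave 1. Of 21 tested genes of vesicle biogenesis and tetraspanins 3 rose and 3 fell (28.6% called, beside 21.1% of all tested genes), with 4 and 3 in the close pairs. Without the filter 3 rose and 0 fell. Without untreated 1, untreated 2, PANC-1 EV 2 and PANC-1 EV 3 in turn, 2, 1, 2 and 2 rose and 0, 0, 1 and 1 fell. Of 3 tested UNC5 receptor and netrin genes 0 passed by limma, with 0 at an unadjusted p under 0.05, 0 by limma voom and 1 in the close pairs. Of 77 tested ribosomal protein genes 2 fell (2.60%) and 0 rose, with 3 falls in the close pairs, 1 fall without untreated 1, PANC-1 EV 2 or PANC-1 EV 3 and 0 without untreated 2. The 13 protein genes of the mitochondrial genome had a median difference of -0.80, and 2 of them fell. They summed to 10621 to 24563 FPKM in untreated and 7629 to 14607 FPKM in vesicle libraries. Of the 13, 12 were called lower without untreated 3, without PANC-1 EV 1 and in the close pairs, against 0 without any other of the 6. In residual medium 11 of the 13 were lower than in untreated cells and 0 higher.

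**Figure D5:**
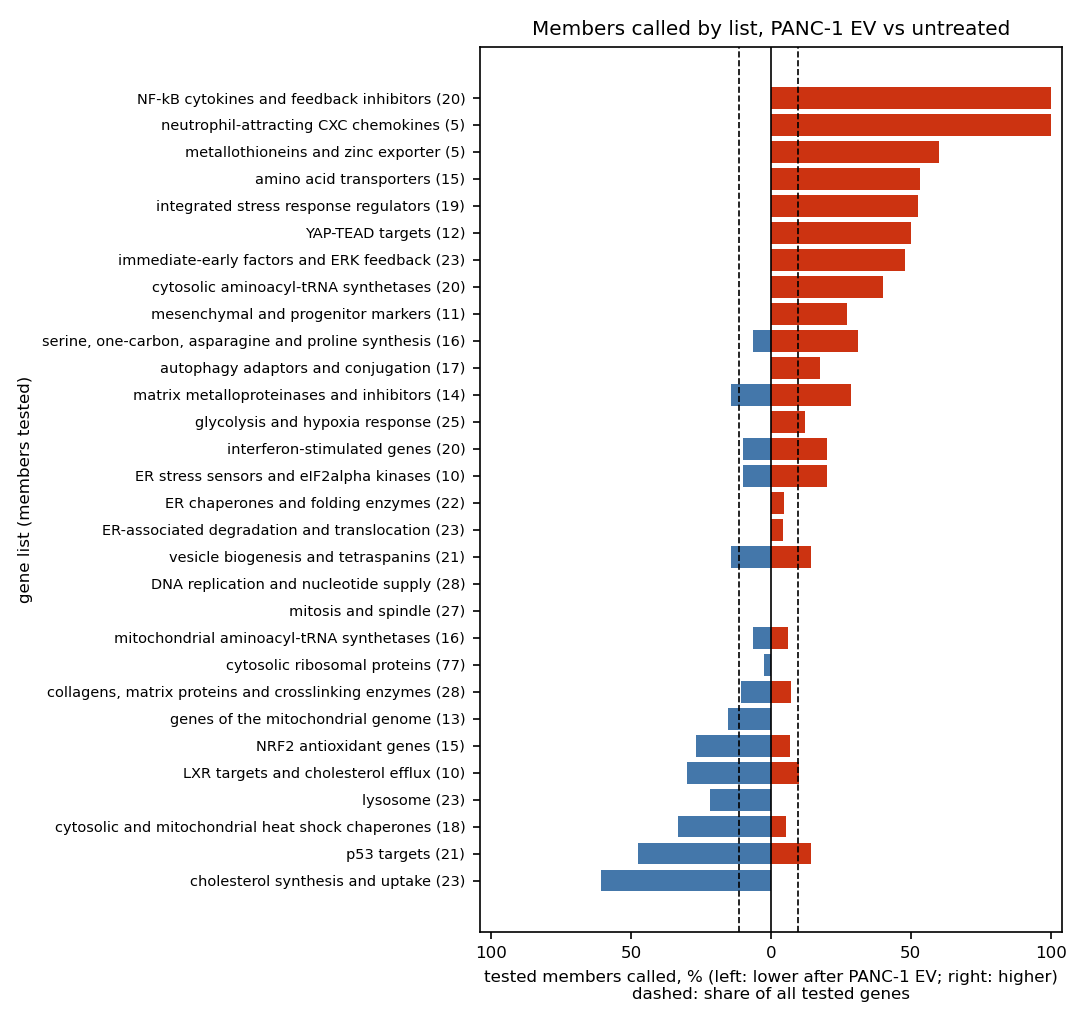
Percent of the tested members of 30 gene lists (number tested in brackets) called higher (right, red) or lower (left, blue) after PANC-1 vesicles than in untreated cells; dashed lines are the shares of all tested genes, 9.61% higher and 11.5% lower. The NF-kB and chemokine lists reach 100% higher, the cholesterol list 60.9% lower, and the mitosis and replication lists are at 0. Several NF-kB and chemokine members are scarce in untreated cells and passed the filter only through the other groups, which favours rises in these lists.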

How the data were processed

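Sample titles gave the group and replicate number of each library. Per the file headers, the authors deposited 1 table per library with FPKM per gene, gene length, symbol and position. The submitters' processing notes list CASAVA, STAR, HTSeq and DESeq2 and the build hg19, with no role or order. The library kit kept no strand, per the labels' protocols, so overlapping antisense genes can share reads. FPKM multiplied by gene length gave whole reads (within 0.05) for 100% of values, and depth was taken from these.

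The test was limma 3.58.1 in R 4.3.3 (lmFit, eBayes with trend, two-sided) on log2(FPKM + 1). The 12 HPNE libraries in 4 groups entered 1 fit, with 8 residual degrees of freedom and a floor of 1 on the mean FPKM, and p-values were Benjamini-Hochberg adjusted over 11503 genes with a threshold of 0.05. Log2 differences on this scale understate the change of weakly expressed genes. The pipeline was tested on simulated data. Of 199 tested genes given a 2-fold change it called 144 in the right direction (72.4%), and it called 12 unchanged genes. With no gene changed it called 0. The simulated libraries were drawn independently, without a library that lies apart in each group as in the real data.

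Genes named are the 12 largest rises and 12 largest falls (protein-coding, past the threshold, groups not overlapping), HSPA5, DDIT3, ATF4, XBP1, ATF3 and HERPUD1, 4 markers of the line, and up to 4 members of each list with the largest difference plus members whose role a sentence needs. Members and lists were chosen with earlier results of these data known. Lists are described by counts and medians, without a set test. Alternatives were a pseudocount of 0.1, no filter, median-of-ratios scaling, only the 6 libraries, the replicate number as a block, limma voom on recovered reads, leaving out each library, and the close pairs. No column of another sample was used, and the HPDE-H6c7 libraries were left out as another cell line. A few listed genes are counted but not reported by name here.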

Additional observations from a re-analysis of the deposited data

How the results depend on the processing

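Each library had at least 30975782 reads in genes; how far depth and how far the spread of 3 libraries per group limited the calls was not tested. The count of called genes (2430) was 2332 with a pseudocount of 0.1, 1931 without a filter and 2588 with median-of-ratios scaling. It was 2399 with only the 6 libraries and 2467 with limma voom on recovered reads. In the same order, 2310, 1540, 2184, 2003 and 2350 of the 2430 kept their call and direction. The replicate numbers are shared by the groups, but deviations of same-numbered libraries correlated at 0.480, -0.443 and 0.490, so the numbers were not taken to pair the libraries; with the replicate number as a block 2462 genes were called, 325 of them by at least 1 on the log2 scale. Leaving out 1 library gave 1046 to 3070 called genes, and 192 to 471 of at least 1 on the log2 scale. The close pairs gave 692 of the latter. Of the 24 largest changes, 21 (12 rises and 9 falls) kept their call under all 13 alternatives. Without a filter the calls of CYR61, DDIT3, EIF2AK3, HSPA5, MT2A, SCD, SNAI1, TNC, TRIB3 and ZNF503 ended (limma adjusted p 0.0572 to 0.115), as did those of EIF2AK3 (0.0688) and TNC (0.0507) with only the 6 libraries and that of TRIB3 with the replicate block (0.0675) and by limma voom (0.0597). The sign of 3 differences near 0 turned: ATF4 (0.05) was -0.14 in the close pairs and ranged from -0.0811 (without untreated 3; -0.0044 without PANC-1 EV 1) to 0.126 as 1 library was left out, TERT from -0.15 to 0.253 (-0.15, -0.091, -0.0359 and -0.0787 without untreated 1, untreated 2, PANC-1 EV 2 and PANC-1 EV 3), and VIM (-0.13) from -0.301 to 0.0334, the latter without PANC-1 EV 3. The cause of these moves was not tested.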
